A study of Mus musculus with 56 samples.

Results

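Plasma proteins that the liver secretes during the acute phase response are encoded by the genes followed here in mouse liver, which were Saa1, Saa2, Saa3, Saa4, Orm1, Orm2, Hp, Lcn2, Apcs and Crp. They were taken by symbol from the deposited expression table, using the first transcript listed for each gene, and make up 10 of its 23813 genes. The libraries were poly(A) RNA-seq of liver from male mice in 3 groups of 4. For 16 days every mouse was fed chow poor in iodine to which 0.15% propylthiouracil (PTU), an inhibitor of thyroid hormone synthesis, had been added. Hypothyroid wild-type (WT) mice were compared with hyperthyroid WT mice, which received 5 µg of triiodothyronine (T3) into the peritoneum, in place of vehicle, during the last 4 to 6 days while on the same diet. The third group was hypothyroid L-NCORdeltaID mice (L-NCOR1deltaID below), whose liver makes a form of the corepressor NCOR1 that lacks the domains contacting thyroid hormone receptors (TRs), and which received no T3. The mutant line is of mixed ancestry, C57BL/6;129S. The study gives age as averages over larger groups of its mice, in which the mutants had the lower mean with overlapping spreads. The strain and age of each mouse sequenced, and the promoter that restricts the mutation to liver, were not given in the sources used here, so strain, age and genotype cannot be told apart in any comparison with the mutants. The study's methods give 4 biological replicates for RNA. Nothing in the labels says that every library is a separate mouse, so p-values measure the spread between libraries.

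The acute phase response is the shift in hepatic protein synthesis that follows infection or injury. Cytokines of the IL-6 family act through STAT3, and IL-1 and TNF act through NF-kB and C/EBP factors, to raise positive acute phase genes such as serum amyloid A and haptoglobin while transcripts such as albumin and transthyretin fall. In the mouse, SAA1, SAA2 and serum amyloid P (encoded by Apcs) are the main reactants, whereas C-reactive protein (Crp) responds little. Without hormone, TRs recruit NCOR1 and its histone deacetylase partner HDAC3 to chromatin, and T3 releases them. The 3 groups therefore separate the level of each gene with low hormone, with hormone, and with low hormone but an NCOR1 that TRs bind poorly.

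Values are RPKM, the reads of a transcript divided by its length and by the number of aligned reads of the library, so transcript length and depth are allowed for. Other differences between libraries are not. Scaling by the median of gene ratios lowered the all-gene median log2 fold change with T3 from 0.233 to 0.04. Each library held about 21280000 to 42600000 aligned reads, as recovered from the spacing of the deposited values. The least expressed member, Saa3, rested on about 27 to 51 reads in hypothyroid WT libraries, whereas Hp rested on about 35522 reads or more. A gene was called with an adjusted p below 0.01 (limma on log2(RPKM + 0.1), Benjamini-Hochberg over all genes tested), together with a log2 fold change beyond 1 in comparisons that include T3 libraries. All 10 members passed the filter on low values in every comparison. Albumin (Alb), the defining hepatocyte transcript, was between 11609 and 37284 RPKM in every library. The T3 label was matched by Thrsp, a classic T3 target, at 847 to 2360 RPKM in hyperthyroid and 209 to 490 RPKM in hypothyroid WT liver. Dio1, another T3 target, was 459 to 641 RPKM with T3 but ranged from 0.719 to 57.7 RPKM in hypothyroid WT liver, the highest value being in replicate 3. Ncor1 itself was 12.1 to 13.9 RPKM in mutants and 14.1 to 15.6 RPKM in hypothyroid WT liver, and since the mutation removes only part of the gene this level does not check the genotype.

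The serum amyloid A genes lie together on chromosome 7 of the mm9 build: Saa3 at chr7:53967368-53971046, Saa4 at chr7:53983387-53987913 and Saa1 at chr7:53995871-53998350 on the minus strand, and Saa2 at chr7:54007203-54009684 on the plus strand. Orm1 and Orm2 are neighbours on chromosome 4, at chr4:63005594-63009197 and chr4:63023483-63026912. Apcs at chr1:174824093-174825185 and Crp at chr1:174628187-174630097 are the pentraxin genes. Hp lies at chr8:112099030-112103072 and Lcn2 at chr2:32240153-32243317. Copies within a family resemble one another, which bears on how reads are assigned. Saa1 and Saa2 were identical at 351 of 369 coding bases (95.1%), and 9.2% of the 50-base windows of the Saa1 transcript occurred unaltered in Saa2. Orm1 and Orm2 were identical at 561 of 624 coding bases (89.9%), with 20.4% of such windows shared. Uniquely aligned reads were used by the authors, so reads from shared stretches would have been dropped. The split within each pair is less certain for that reason, and the level of the pair together would be lowered as well.

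RefSeq promoter sequence (build GRCm38.p6, the 250 bases before the annotated start) was found for 8 of the 10 members, but not for Orm1 and Hp. The serum amyloid A promoters are shown because in mutants Saa1 and Saa2 lay above hypothyroid WT liver while Saa4 lay below it. That of Lcn2 is shown because its lowest values were in hypothyroid WT liver, and that of Apcs because it was called higher with T3. Capitals mark matches on either strand to a C/EBP motif (TTGCNNAA), a STAT motif (TTCNNNGAA) or a nuclear receptor half-site (AGGTCA), and no 2 matches overlapped.
Saa1, chr7:46742981-46743230, minus strand: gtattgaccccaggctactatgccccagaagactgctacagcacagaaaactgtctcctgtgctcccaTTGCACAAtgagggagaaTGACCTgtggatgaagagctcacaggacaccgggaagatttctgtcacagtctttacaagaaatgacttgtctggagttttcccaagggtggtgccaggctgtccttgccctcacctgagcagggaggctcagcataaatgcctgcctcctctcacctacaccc
Saa2, chr7:46751583-46751832, plus strand: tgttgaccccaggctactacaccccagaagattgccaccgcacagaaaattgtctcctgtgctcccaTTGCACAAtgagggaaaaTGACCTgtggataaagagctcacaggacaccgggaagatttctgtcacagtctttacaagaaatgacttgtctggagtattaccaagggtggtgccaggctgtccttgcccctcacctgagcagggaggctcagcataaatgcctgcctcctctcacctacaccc
Saa3, chr7:46715677-46715926, minus strand: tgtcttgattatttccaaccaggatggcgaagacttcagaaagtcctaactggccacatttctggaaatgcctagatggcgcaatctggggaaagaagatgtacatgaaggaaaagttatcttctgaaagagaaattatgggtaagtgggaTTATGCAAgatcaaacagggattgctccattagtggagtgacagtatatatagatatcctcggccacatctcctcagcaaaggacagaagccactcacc
Saa4, chr7:46732604-46732853, minus strand: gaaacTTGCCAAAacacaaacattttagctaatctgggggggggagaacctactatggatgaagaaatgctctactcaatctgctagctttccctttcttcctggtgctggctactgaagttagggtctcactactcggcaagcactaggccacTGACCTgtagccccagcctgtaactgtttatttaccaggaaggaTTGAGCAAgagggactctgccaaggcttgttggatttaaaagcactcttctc
Lcn2, chr2:32387740-32387989, minus strand: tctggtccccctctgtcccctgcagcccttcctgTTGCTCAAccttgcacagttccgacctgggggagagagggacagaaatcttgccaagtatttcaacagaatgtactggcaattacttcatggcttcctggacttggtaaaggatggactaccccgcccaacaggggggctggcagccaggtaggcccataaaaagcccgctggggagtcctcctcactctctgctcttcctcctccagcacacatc
Apcs, chr1:172895055-172895304, minus strand: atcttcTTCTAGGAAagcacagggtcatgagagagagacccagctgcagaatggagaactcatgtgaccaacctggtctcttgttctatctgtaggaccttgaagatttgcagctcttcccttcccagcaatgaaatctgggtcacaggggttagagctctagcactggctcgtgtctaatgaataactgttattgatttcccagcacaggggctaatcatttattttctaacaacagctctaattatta
The C/EBP motif matched in 6 of the 8 promoters, against 9.56% of 32851 promoters of the same length. These 6 were Saa1, Saa2, Saa3, Saa4, Orm2 and Lcn2, and because the serum amyloid A promoters are related they are not separate instances. Saa1 and Saa2 were identical at 238 of 251 aligned promoter bases (94.8%) and carried the same C/EBP match, TTGCACAA, 182 and 183 bases before the start. The half-site matched in Saa1, Saa2 and Saa4, 3 of 8 promoters against 14% of all. A STAT match was found in Apcs alone of the 8, against 7.02% of all promoters. The NF-kB motif searched (GGGNN followed directly by TTNCC) matched in 0 of 8, against 4.11% of all promoters, and the TATA motif TATAAA in Crp and Orm2, against 12.4%. These matches describe letters in a window and were not tested for binding.

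The acute serum amyloids Saa1 and Saa2, which encode HDL-borne proteins of the acute response, and Saa3, a form also made by macrophages and fat cells, were higher than in hypothyroid liver. Across the 10 members, 4 were called higher with T3 (Saa1, Saa2, Saa3 and Apcs) and 0 lower, against 8.28% of 13941 genes called higher and 3.47% called lower. The members' median log2 fold change was 1.06, against 0.23 over all genes tested. In 6 of 10 members every hyperthyroid library lay above every hypothyroid WT library, a pattern that 35.8% of all genes tested showed, and in 0 every hyperthyroid library lay below (10.8% of all genes). At an unadjusted p below 0.05, 7 members were higher and 0 lower, as were 5980 and 1897 of all 13941 genes tested.

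Saa1 was 9.62, 14.5, 11.1 and 9.16 RPKM in hypothyroid WT replicates 1 to 4. It was 673, 1388, 220 and 159 RPKM in hyperthyroid WT liver. The groups were far apart, and within the hyperthyroid group replicate 2 stood 8.71 times above replicate 4, whereas the hypothyroid libraries spanned 1.58 times. The log2 fold change was 5.27 ± 0.60 (SE, n = 4 per group), or 38.7-fold on the log scale, with an adjusted p of 0.00016 by limma. Saa2 was 3.96, 7.02, 3.45 and 4.44 RPKM without T3 and 539, 1505, 229 and 69.9 RPKM with it. Its log2 fold change was 6.18 ± 0.78 (adjusted p = 0.00029), a 72.7-fold difference, and replicate 2 was again highest and replicate 4 lowest. The summed level of Saa1 and Saa2 was 13.6 to 21.5 RPKM without T3 and 229 to 2893 RPKM with T3. This sum does not depend on how the kept reads were split between the 2 genes, but it lacks any reads dropped from shared stretches. The ratio of Saa2 to Saa1 was 0.31 to 0.48 in hypothyroid WT liver and 0.44 to 1.08 in hyperthyroid liver, with an overlap at replicate 4 only. Both calls held with any 1 library left out. The Saa2 estimate moved most, to 5.46 without T3 replicate 2 and 6.94 without T3 replicate 4.

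Saa3 was 2.06, 2.26, 1.76 and 2.53 RPKM in hypothyroid WT liver and 9.14, 43.7, 9.45 and 4.73 RPKM in hyperthyroid liver. All hyperthyroid libraries lay above all hypothyroid ones, with replicate 2 far above the rest, and the log2 fold change was 2.39 ± 0.56 (adjusted p = 0.0067). This call was lost without T3 replicate 1 or 3 and without any 1 of the hypothyroid WT replicates 1 to 4, with adjusted p between 0.012 and 0.018, and without T3 replicate 2 the estimate was 1.75. Saa4, which encodes the constitutive form on HDL, was 151, 193, 173 and 127 RPKM without T3 and 290, 467, 190 and 189 RPKM with T3. The groups overlapped by a single hypothyroid library, and the log2 fold change of 0.73 ± 0.28 did not pass (adjusted p = 0.053). Among these 4 genes, Saa4 was by far the most abundant in hypothyroid WT liver (mean 161 RPKM against 11.1 for Saa1), whereas with T3 Saa1 and Saa2 had the highest means (610 and 586 RPKM against 284 for Saa4).

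**Figure D1:**
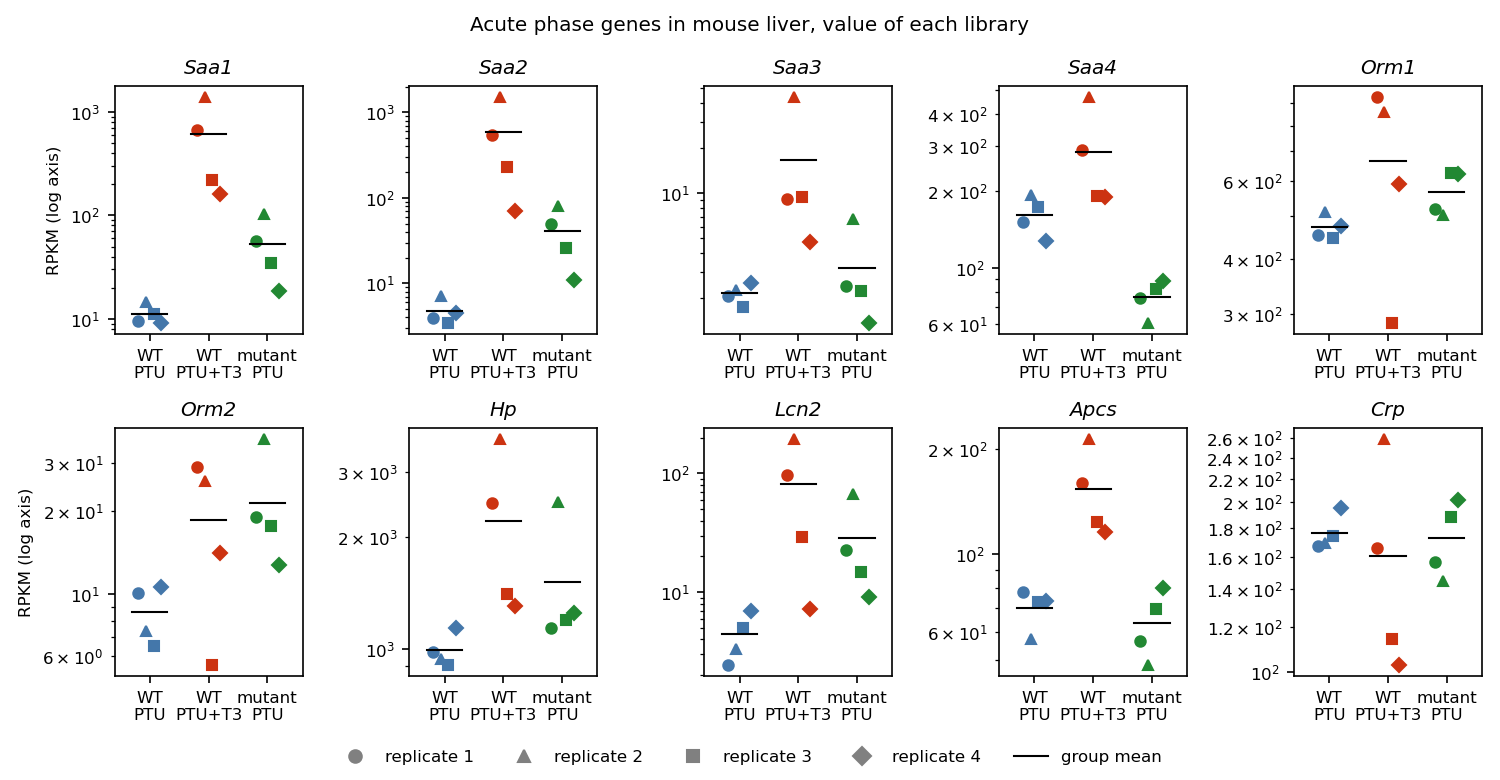
RPKM of each acute phase gene in every liver library, on log axes with a separate scale per gene; colours are groups (WT PTU, hypothyroid wild type; WT PTU+T3, hyperthyroid wild type; mutant PTU, hypothyroid L-NCOR1deltaID), symbols are replicate numbers and black bars are group means (n = 4). Saa1 forms 3 levels without overlap, with hyperthyroid libraries from 159 RPKM upward, mutants from 18.5 to 103 RPKM and hypothyroid wild-type libraries at 14.5 RPKM or below.

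Haptoglobin (Hp) binds free haemoglobin, and lipocalin 2 (Lcn2) binds bacterial siderophores and so withholds iron. Hp was the most abundant member in every group. It was 984, 943, 910 and 1143 RPKM without T3 and 2471, 3666, 1412 and 1308 RPKM with T3. Each hyperthyroid library was above each hypothyroid WT library, but the log2 fold change of 1.03 ± 0.31 missed the threshold (adjusted p = 0.020). Lcn2 was 2.45, 3.31, 4.98 and 6.94 RPKM without T3 and 97.3, 194, 29.3 and 7.28 RPKM with T3. Here the lowest hyperthyroid value, in replicate 4, was just above the highest hypothyroid value, and the other 3 were well above it. The log2 fold change was 3.42 ± 0.88 with an adjusted p of 0.011, also just short of the threshold. Leaving out T3 replicate 4 brought both genes past it, at 4.29 for Lcn2 (adjusted p = 0.00095) and 1.24 for Hp (adjusted p = 0.0093).

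Serum amyloid P, the product of Apcs, is a pentraxin that binds amyloid and bacterial surfaces. Apcs was 77.9, 57.2, 73.0 and 73.4 RPKM without T3 and 160, 213, 124 and 115 RPKM with T3. The groups did not overlap and the spread was small, giving a log2 fold change of 1.09 ± 0.19 (adjusted p = 0.0015). That estimate stood just above the required 1, and without T3 replicate 2 or without hypothyroid WT replicate 2 it was 0.91 and 0.99, so the call ended while the adjusted p stayed at 0.0015 and 0.0051. Crp, its paralogue, was 167, 169, 174 and 195 RPKM without T3 and 166, 259, 114 and 103 RPKM with T3. Hyperthyroid libraries lay on both sides of the hypothyroid ones, with a log2 fold change of -0.23 and a 95% interval from -0.80 to 0.34. The orosomucoids are abundant glycoproteins that carry basic drugs and lipids. Orm1 was 452, 511, 446 and 473 RPKM without T3 and 928, 861, 286 and 590 RPKM with T3. Hyperthyroid replicates 1, 2 and 4 were above the hypothyroid range and replicate 3 was below it, and the log2 fold change was 0.37 (95% interval -0.36 to 1.10). Orm2 was 10.1, 7.38, 6.52 and 10.6 RPKM without T3 and 28.8, 25.8, 5.56 and 14.2 RPKM with T3. It was likewise lowest in T3 replicate 3, and its log2 fold change of 0.87 (interval -0.17 to 1.91, adjusted p = 0.14) became 1.36 (adjusted p = 0.0050) without that library.

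In hypothyroid mutants Saa4 was the single member called (lower), with 0 of 10 called higher, against 0.725% of 13790 genes called higher and 0.544% called lower. At an unadjusted p below 0.05, 5 members (Saa1, Saa2, Orm1, Orm2 and Lcn2) were higher, as were 1759 of all genes tested. Every mutant library lay above every hypothyroid WT library for 4 members (Saa1, Saa2, Orm2 and Lcn2) and below for 1 (Saa4), against 7.78% and 5.36% of all genes tested. The members' median log2 fold change was 0.42, against 0.03 over all genes.

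Saa1 was 56.7, 103, 34.7 and 18.5 RPKM in mutant replicates 1 to 4, all above the highest hypothyroid WT library at 14.5 RPKM. The log2 fold change was 2.00 ± 0.45 (95% interval 0.995 to 3.01, adjusted p = 0.040). Saa2 was 49.8, 79.4, 25.8 and 10.9 RPKM, again above the WT maximum of 7.02 RPKM, with a log2 fold change of 2.81 ± 0.54 (adjusted p = 0.023). Neither passed an adjusted p of 0.01, and both passed without mutant replicate 4, at 2.42 (adjusted p = 0.0072) and 3.33 (adjusted p = 0.0033). Their summed level was 29.4 to 182 RPKM in mutants. Saa3 was 2.42, 6.78, 2.22 and 1.37 RPKM in mutants, around the WT range apart from replicate 2, with a log2 fold change of 0.31 that turned to -0.12 without that library.

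Saa4 was 76.1, 60.7, 82.0 and 88.8 RPKM in mutants, all below the lowest hypothyroid WT library at 127 RPKM. It fell by 1.06 ± 0.15 on the log2 scale (adjusted p = 0.0069). Thus within a gene cluster spanning 42317 bases, Saa4 lay below WT in the same 4 mutant libraries in which Saa1 and Saa2 lay above WT. The Saa4 call was lost without any 1 of mutant replicates 1, 2 or 3 or hypothyroid WT replicates 1, 2 or 3, with log2 fold changes from -1.10 to -0.95 and adjusted p from 0.012 to 0.026.

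Lcn2 was 22.5, 67.1, 14.9 and 9.19 RPKM in mutants against at most 6.94 RPKM in hypothyroid WT liver, with a log2 fold change of 2.35 ± 0.56 (adjusted p = 0.052). Orm2 was 19.1, 36.4, 17.7 and 12.8 RPKM, also without overlap, at 1.22 ± 0.30 (adjusted p = 0.055). Hp was 1138, 2487, 1202 and 1253 RPKM, of which replicate 1 was within the WT range, and its log2 fold change was 0.54 (interval -0.01 to 1.08). Orm1 (517, 502, 626 and 623 RPKM), Apcs (56.4, 48.3, 69.9 and 80.1 RPKM) and Crp (157, 145, 189 and 202 RPKM) overlapped with WT. Their log2 fold changes were 0.26, -0.16 and -0.04, and the intervals for Apcs (-0.53 to 0.21) and Crp (-0.30 to 0.22) bound what these data allow.

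**Figure D2:**
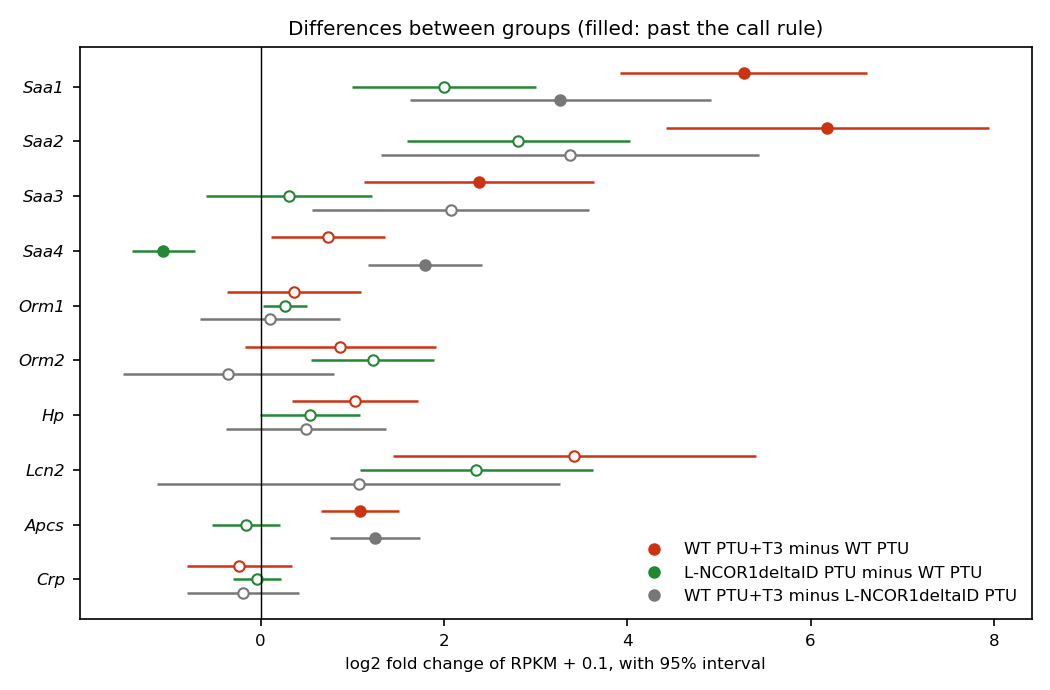
Log2 fold change of each acute phase gene in 3 comparisons, with 95% intervals from limma (n = 4 libraries per group); filled points passed the call rule. Saa4 is lower in the mutant (-1.06) and higher with T3 than in the mutant (1.79), and the intervals of Crp include 0 in every comparison.

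Because both groups were compared with the same 4 hypothyroid WT libraries, the difference between the effects was tested directly as hyperthyroid WT against hypothyroid mutant liver. Here 3 members were called higher with T3 (Saa1, Saa4 and Apcs) and 0 lower, against 5.52% of 14017 genes called higher and 3.00% called lower. Saa1 was 9.65-fold higher with T3 (log2 fold change 3.27 ± 0.73, adjusted p = 0.0076), and the lowest hyperthyroid library at 159 RPKM exceeded the highest mutant library at 103 RPKM. This call was lost without T3 replicate 1, 2 or 3 or mutant replicate 1, 3 or 4, with log2 fold changes from 2.70 to 3.59 and adjusted p from 0.012 to 0.024. Saa4 differed by 1.79 ± 0.28 (adjusted p = 0.0014) and Apcs by 1.25 ± 0.22 (adjusted p = 0.0025), neither with overlap between groups. Both calls held with any 1 library left out. In 3 members every hyperthyroid library was above every mutant library, against 28.7% of all genes tested, and in 0 below (9.57% of all genes).

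For Saa2 the difference was 3.37 ± 0.91 (adjusted p = 0.018) and for Saa3 2.07 ± 0.67 (adjusted p = 0.036), and in both the lowest hyperthyroid library fell within the mutant range. Without T3 replicate 4, Saa2 passed at 4.13 (adjusted p = 0.0060). Lcn2 and Hp did not differ beyond the spread, at 1.07 (interval -1.14 to 3.27) and 0.49 (interval -0.38 to 1.36). The wide interval for Lcn2 leaves both equality and a large difference possible. Orm1 (0.10, interval -0.66 to 0.86), Orm2 (-0.35, interval -1.50 to 0.80) and Crp (-0.19, interval -0.80 to 0.42) did not pass either. Without T3 replicate 3 the sign of Orm2 turned (0.14), and without T3 replicate 1 or 2 that of Orm1 (-0.10 and -0.06).

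The members did not vary alike among libraries of a group. In hyperthyroid liver, replicate 2 was highest for 8 of 10 members and replicate 4 lowest for 8, while Orm1 and Orm2 were highest in replicate 1 and lowest in replicate 3. In mutants, replicate 2 was highest for 6 members (Saa1, Saa2, Saa3, Orm2, Hp and Lcn2) and lowest for the remaining 4. The 10 genes together took 0.46 to 0.50% of all RPKM in hypothyroid WT livers, 0.65 to 2.25% in hyperthyroid livers and 0.55 to 0.88% in mutants. With group means removed, 65 relations were computed over the 12 libraries, among members and with the summed Kupffer cell and neutrophil markers. In an exact permutation test within groups (two-sided), 11 relations passed an adjusted p of 0.05 by Pearson's r and 0 by Spearman's rho, for which 17 relations had an unadjusted p below 0.05 and the smallest adjusted p was 0.066. With a pseudocount of 1 in place of 0.1, 8 relations passed that test by r and 0 by rho. Saa1 and Saa2 moved most closely (r = 0.967, rho = 0.951, exact permutation p = 0.00072 and 0.0022, adjusted p = 0.044 and 0.071 over 12 libraries), and r was 0.952 without the 2 libraries farthest from the median of Saa1. In each pair the 2 farthest libraries were chosen by the first gene named, or by the member where the other side was a marker sum. Libraries far out in the other gene or sum alone were kept. For Saa1 and Lcn2, r was 0.902 and rho 0.867 (exact permutation p = 0.0063 and 0.011, adjusted p = 0.049 and 0.12), and r was 0.819 without the 2 farthest libraries. Among Saa1, Saa2, Saa3, Hp and Lcn2, a set grouped after the values were seen, the 10 pairwise r ranged from 0.81 to 0.967 and rho from 0.671 to 0.951, and 7 of these r passed an adjusted p of 0.05 in the exact permutation test. Without the 2 farthest libraries the r ranged from 0.587 to 0.952. Within groups of 4 those r were 0.853 to 0.997 in hyperthyroid and 0.612 to 0.992 in mutant liver, but -0.64 to 0.827 in hypothyroid WT liver. With a pseudocount of 1, Saa2 with Saa3 (adjusted p = 0.058) and Saa3 with Lcn2 (adjusted p = 0.055) no longer passed the exact permutation test by r. Apcs and Crp followed each other (r = 0.886, rho = 0.825, exact permutation p = 0.0016 and 0.013, adjusted p = 0.044 and 0.12; r = 0.841 without the 2 farthest libraries). All libraries are scaled to their own totals, which such correlations share.

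**Figure D3:**
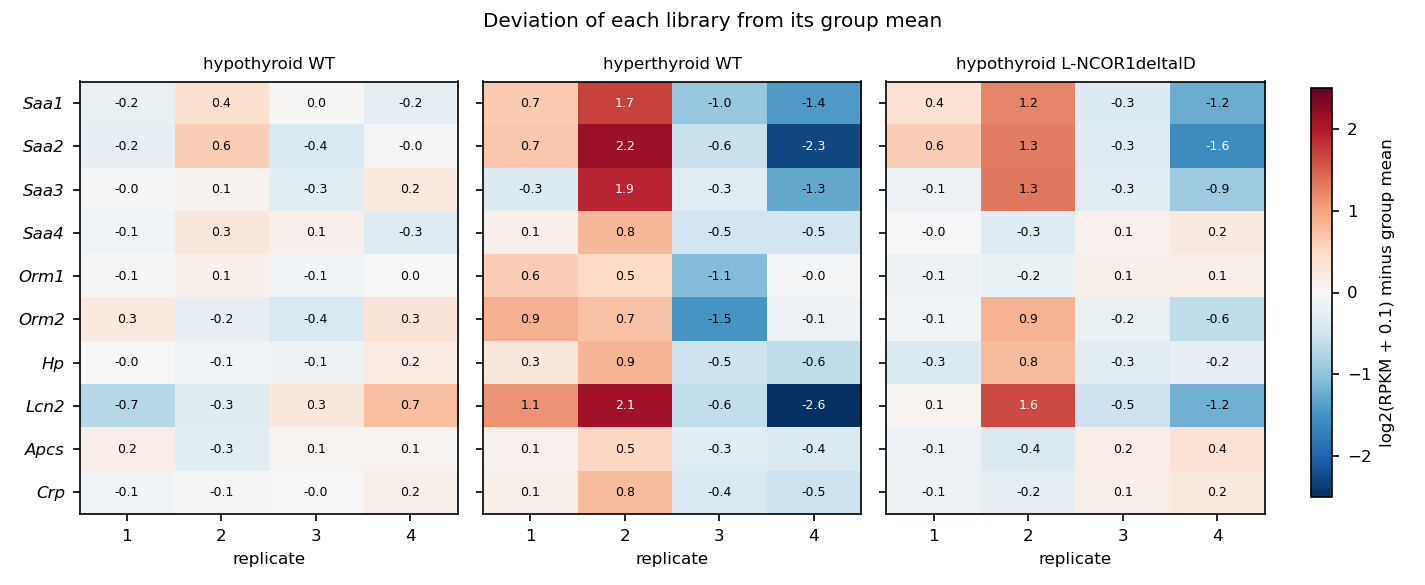
Deviation of each library from its group mean, in log2(RPKM + 0.1), for each acute phase gene and replicate (colour and printed value); panels are the 3 groups. Replicate 2 is above its group mean for all 10 genes in hyperthyroid liver, and in mutants it is above for Saa1, Saa2, Saa3, Orm2, Hp and Lcn2 and below for Saa4, Orm1, Apcs and Crp.

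The non-member genes closest to Saa1 by the same within-group r over 12 libraries, among 10653 genes with a mean of at least 1 RPKM, were Ccnl1 (0.918), Tor1aip1 (0.913) and the unnamed transcript 1700045H11Rik (0.912). Saa2 ranked above all of these. The closest to Lcn2 were Zfp36l1 (0.948), Tmem94 (0.904) and Lbp (0.901), and the closest to Orm2 were AW112010 (0.951), Ncam2 (0.931) and Fmo1 (0.928). These r are a description of 12 libraries and the top of a long ranking.

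Of 21 other positive acute phase genes, 20 were tested with T3, of which 4 rose and 0 fell, with a median log2 fold change of 0.70. Of all 13941 genes tested with T3, 8.28% were called higher and 3.47% lower, and the median was 0.23. At an unadjusted p below 0.05 by limma, 12 of the 20 were higher and 1 lower, against 5980 and 1897 of all genes. The 4 called higher were Fgl1 (fibrinogen-like 1), Cd14 and Lbp (which present bacterial lipopolysaccharide) and Hpx (haemopexin, a haem carrier). Fgl1 went from 28.8 to 42.7 RPKM in hypothyroid WT liver to 92.2 to 526 RPKM with T3 (log2 fold change 2.52, adjusted p = 0.0018). Lbp was 17.2 to 18.5 RPKM without T3 and 26.8 to 104 RPKM with it (1.48, adjusted p = 0.0064). Hpx, the most abundant of these, was 1200 to 1292 RPKM and then 2592 to 3881 RPKM (1.36, adjusted p = 0.00013), and Cd14 differed by 1.80 (adjusted p = 5.4e-05). Of 10 negative acute phase genes, 0 rose and 3 fell with T3, the plasma carriers transthyretin (Ttr, -1.55), apolipoprotein A2 (Apoa2, -1.39) and albumin (Alb, -1.16). One member of that list moved the other way without reaching the log2 limit of 1, Ahsg (fetuin A), which was 2526 to 2939 RPKM without T3 and 4452 to 5538 RPKM with T3 (0.90, adjusted p = 0.0015 by limma). In mutants 1 of 20 positive genes rose (Fgl1, 70.6 to 134 RPKM, 1.32, adjusted p = 0.0082). At an unadjusted p below 0.05, 7 of the 20 were higher and 3 lower, against 1759 and 1072 of all 13790 genes tested. Every mutant library lay above every hypothyroid WT library for 6 of the 20 and below for 1, against 7.78% and 5.36% of all genes. Lbp narrowly missed the call (1.02, adjusted p = 0.012 by limma). Of 10 negative genes, limma called 0 in mutants, also 0 at an unadjusted p below 0.05. Itih4, an inter-alpha-trypsin inhibitor chain, was the single positive gene called higher with T3 than in mutants (1.25, adjusted p = 0.0038), and Ttr the single negative one called lower (-1.34, adjusted p = 0.00093). Shares over all 14017 genes in that comparison were 5.52% higher and 3.00% lower.

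Among 12 regulators of acute phase genes, Cebpb, Fos and Cebpg rose with T3 and 0 fell. For this list and those below, the shares over all 13941 genes tested with T3 were 8.28% called higher and 3.47% lower. Cebpb, which encodes the C/EBP factor long tied to acute phase promoters, was 10.3 to 15.3 RPKM in hypothyroid WT, 46.2 to 125 RPKM in hyperthyroid and 24.4 to 37.1 RPKM in mutant liver. It was the single regulator that rose in mutants as well (2.31 with T3, adjusted p = 0.00027; 1.32 in mutants, adjusted p = 0.0026). Cebpg, a partner that lacks an activation domain, differed by 1.01 with T3 (adjusted p = 0.00066) and Fos by 1.5 (adjusted p = 0.0067, at under 1 RPKM on average). Tsc22d3, a glucocorticoid target, had lower values with T3 (36.9 to 71.3 RPKM against 79.8 to 110 RPKM) and missed the log2 limit at -0.94 (adjusted p = 0.0035). Of 12 tested IL-6 family signalling genes, Lifr (1.77, adjusted p = 0.00041) and Osmr (1.35, adjusted p = 0.0060), receptor chains for LIF and oncostatin M, rose with T3 and 0 fell. Il6 itself was 0.035 RPKM or less in every library. Tnf was at most 0.02 RPKM in hypothyroid WT, 0.058 to 0.347 RPKM in hyperthyroid and 0.029 to 0.098 RPKM in mutant liver. Both genes were below the filter and were not tested. Of 23 tested IL-1, TNF and NF-kB genes, 8 rose with T3 and 0 fell, led by the receptors Il1r1 (2.29, adjusted p = 0.00077) and Tlr2 (2.28, adjusted p = 0.0044) and followed by Il1a (2.00), Relb (1.89) and Il1b (1.56). Il1rap, the shared chain of IL-1 family receptors, had lower values with T3 (12.5 to 17.1 RPKM against 24.4 to 27.9 RPKM) and missed the log2 limit at -0.85 (adjusted p = 0.00048). Ahsg, Tsc22d3 and Il1rap are named because they went against the direction of their lists, which was seen in their values. Il1r1 was 5.74 to 15.1 RPKM without T3, 34.0 to 86.0 RPKM with T3 and 7.96 to 11.9 RPKM in mutants. In mutants limma called 0 of these 23 and 0 of 12 IL-6 family genes, with 4 higher and 2 lower of the first and 2 higher of the second at an unadjusted p below 0.05. Of all 13790 genes tested in mutants, 1759 were higher and 1072 lower at that limit.

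Of 11 tested receptors and partners of the member proteins, 6 rose with T3 (Tlr2, Hmox1, Cd163, Fcgr1, Fpr2 and Fcgr3) and 0 fell. The all-gene shares with T3 were 8.28% called higher and 3.47% called lower. Cd163, the haptoglobin-haemoglobin receptor of macrophages, was 2.44 to 3.31 RPKM in hypothyroid WT and 8.11 to 15.8 RPKM in hyperthyroid liver (1.91, adjusted p = 8e-05). Hmox1, which degrades the haem so taken up, differed by 2.01 (adjusted p = 0.00028). Fpr2, a receptor for serum amyloid A, differed by 1.72 (adjusted p = 0.0011), at about 1.07 RPKM with T3. In mutants limma called 0 of 11, with 2 higher and 1 lower at an unadjusted p below 0.05. All 13790 genes tested gave 1759 higher and 1072 lower at that limit. Between hyperthyroid WT and mutant liver, Cd163 differed by 2.71 on the log2 scale (adjusted p = 0.00037, higher with T3).

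**Figure D4:**
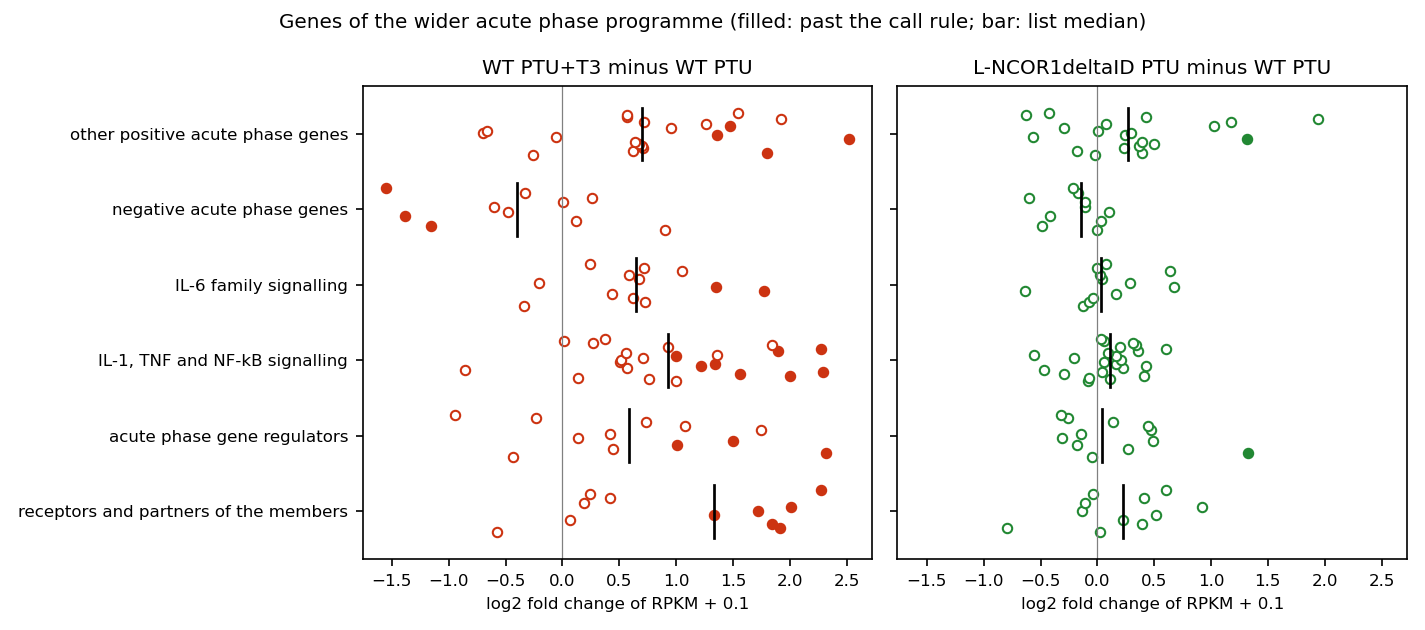
Log2 fold change of each tested gene in 6 lists related to the acute phase response, with T3 (left) and in the NCOR1 mutant (right); filled points passed the call rule and bars are list medians. With T3 the medians run from -0.40 (negative acute phase genes) to 1.34 (receptors and partners), and in the mutant Fgl1 and Cebpb are the filled points.

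Several of these genes are made by immune cells, and markers of those cells moved with T3. For comparison, 8.28% of all 13941 genes tested with T3 were called higher and 3.47% lower. All 13 Kupffer cell and macrophage markers tested rose with T3 (median log2 fold change 1.94), and their summed level was 99.0 to 140 RPKM in hypothyroid WT, 342 to 496 RPKM in hyperthyroid and 105 to 292 RPKM in mutant liver, where limma called 0 of 13 (4 were higher at an unadjusted p below 0.05). In bulk liver, more cells of a type and more RNA per cell cannot be told apart. Of 11 neutrophil markers in the table, 4 passed the filter with T3 and 3 rose (S100a9, S100a8 and Csf3r), with a summed level of 0.458 to 1.23 RPKM without T3 and 2.56 to 21.4 RPKM with T3. The granule genes Mpo, Ltf, Ngp and Camp were at or near 0, with 0.085 RPKM as their highest value in any library, and Elane reached 0.15 RPKM in a hypothyroid WT library. Retnlg was 0.127 to 2.97 RPKM with T3 and at most 0.053 RPKM in hypothyroid WT liver, and Mmp8 was 0.077 to 0.488 RPKM with T3 and at most 0.042 RPKM without it. Cxcr2, which did not pass the filter, was 0.05 to 0.522 RPKM with T3 and 0.017 to 0.031 RPKM in hypothyroid WT liver. One of 8 endothelial markers (Lyve1), 1 of 7 lymphocyte markers tested (Ptprc), 1 of 5 bile duct markers (Krt7) and 1 of 6 erythrocyte markers (Hbb-bt) rose, Alas2 of the erythrocyte list fell, and 0 of 7 stellate cell markers and 0 of 1 tested adipocyte marker were called, with 5 and 1 of them higher at an unadjusted p below 0.05. At that unadjusted limit 6 endothelial, 3 lymphocyte, 1 bile duct and 5 erythrocyte markers were higher with T3. Lower there were 1 bile duct and 1 erythrocyte marker, against 5980 higher and 1897 lower of all 13941 genes tested. By limma's adjusted p below 0.01 without the log2 limit, 4 endothelial and 5 erythrocyte markers were higher, against 3413 of all genes. Of 7 hepatocyte markers, 2 fell with T3 (Ttr and Alb) and limma called 0 in mutants (1 was lower at an unadjusted p below 0.05). In mutants limma called 0 markers of the endothelial, stellate, bile duct, lymphocyte and neutrophil lists (2, 3, 0, 0 and 2 were higher at an unadjusted p below 0.05), and Alas2 fell (-1.10). At that unadjusted limit 1759 of all 13790 genes tested in mutants were higher and 1072 lower. One lymphocyte marker, the T cell receptor chain Cd3e, was lower in mutants at an unadjusted p below 0.05, with 0.144 to 0.385 RPKM against 0.563 to 2.39 RPKM in hypothyroid WT liver (-2.02, adjusted p = 0.027). Across the 12 libraries with group means removed, the Kupffer cell sum had r = 0.247 with Saa1 (rho = -0.014, exact permutation p = 0.53 and 0.98, adjusted p = 0.61 and 1) and r = -0.615 with Saa4 (rho = -0.825, exact permutation p = 0.0020 and 0.0010, adjusted p = 0.044 and 0.066), and without the 2 farthest libraries these r were 0.583 and -0.714. By r the Kupffer cell sum also passed with Crp (r = -0.561, rho = -0.790) and Orm1 (r = -0.448, rho = -0.741). Their adjusted p in that permutation test was 0.049 each by r, and 0.12 and 0.16 by rho. With a pseudocount of 1, Orm1 no longer passed (adjusted p = 0.055). For Apcs, r was -0.628 (rho = -0.657, adjusted p = 0.15 and 0.20). For Saa2, Saa3, Orm2, Hp and Lcn2, r was 0.218 to 0.305. Within single groups of 4, given as a description, r between the Kupffer cell sum and Saa1 was -0.706 in hypothyroid WT, -0.869 in hyperthyroid and 0.970 in mutant liver. The neutrophil sum had r = 0.562 with Saa1 over the 12 libraries (rho = 0.524, exact permutation p = 0.18 and 0.18, adjusted p = 0.39 and 0.40), and r was 0.057 without the 2 farthest libraries. In hyperthyroid liver alone its r was 0.956 with Saa1, 0.999 with Saa2 and 0.994 with Lcn2 (n = 4), and replicate 2 was highest in that sum and in each of these genes. In mutant liver those r were 0.028, 0.022 and 0.040, and in hypothyroid WT liver -0.962, -0.695 and 0.031. The part of immune cells in the members' levels was not tested further.

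The study also deposited 37200 liver regions carrying acetylated H3K27 or H3K9, marks of active enhancers and promoters, as positions without a value per sample. The start site of 9 of 10 members lay inside such a region, against 86.0% of 12314 tested genes with an annotated position, a share near that background. The exception was Saa3, whose start was 2903 bases from the nearest region, upstream of it. The regions holding the Hp (18007 bases), Crp (16656 bases), Orm2 (13915 bases), Orm1 (12990 bases) and Saa4 (7138 bases) starts were longer than the upper quartile of 7103 bases over all such genes, and Saa2 had the shortest at 1360 bases. The serum amyloid A cluster of 42317 bases held 6 separate regions, 3 of which covered the starts of Saa4, Saa1 and Saa2. One region covered the starts of Orm3 and Orm2 together. The list pools conditions and carries no value for any of them, and acetylation levels by condition were not used here.

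**Figure D5:**
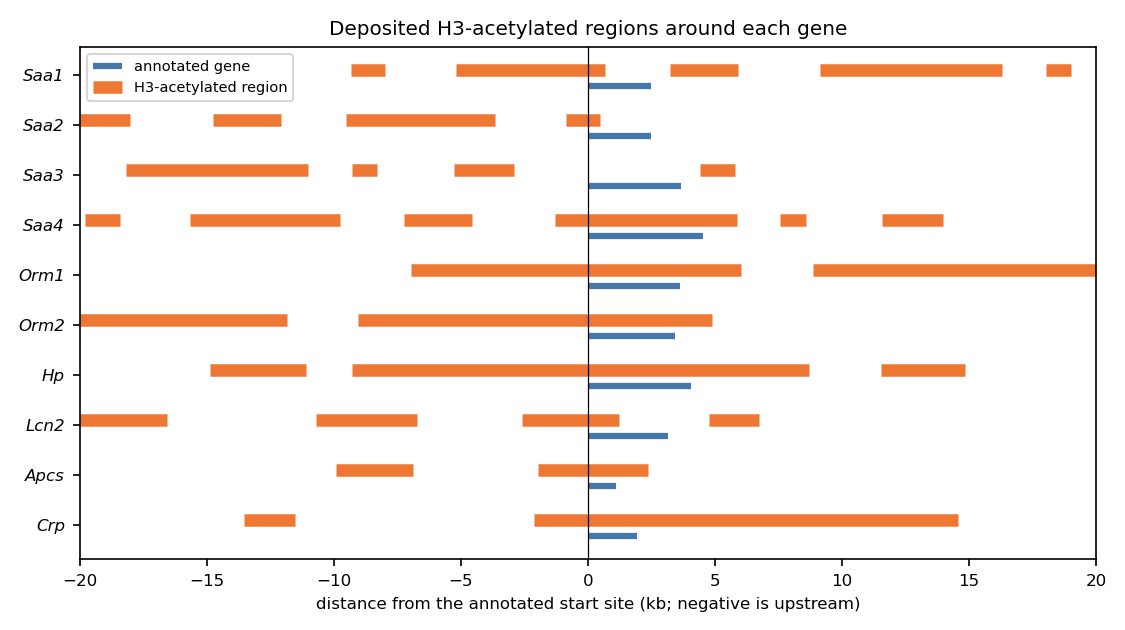
Deposited H3-acetylated regions (orange) and the annotated gene (blue) within 20 kb of each start site, drawn in the direction of transcription; the x axis is the distance in kb. The start of Saa3 alone lies outside a region, and the regions over Hp and Crp extend 8702 and 14539 bases downstream.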

How the data were processed

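Liver poly(A) RNA-seq of 12 libraries (4 per group) was used. The authors aligned reads to mm9 with STAR, kept uniquely aligned reads and used HOMER to quantify transcripts as the deposited RPKM. The submitters' processing notes name STAR, HOMER and DESeq2, without versions. The deposited list of acetylated regions holds coordinates only. Per the labels, each RNA library has runs on a HiSeq 1500 and a NovaSeq 6000. The members, gene lists and named genes (all members, the called genes of each list up to the 5 largest, and the 3 genes most like Saa1, Orm2 and Lcn2) were chosen with earlier results of these data known.

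From 31370 transcripts the first row of each of 23813 genes was taken (1 row without a gene name was left out). A gene was tested where 4 or more libraries of a comparison reached 0.1 RPKM, using limma 3.58.1 (R 4.3.3, trended variance) on log2(RPKM + 0.1). The groups compared alone entered each fit. RPKM is not a count, so no count test was used, and a log2 fold change with a pseudocount understates the change of low genes. The test was checked on simulated data. Values carry 3 decimals, from whose steps and GENCODE lengths depth was recovered. Alternatives were another pseudocount or filter, another scaling, transcript, threshold or variance model, all libraries in 1 fit, a replicate block and each library left out. Annotation was GENCODE M1 on NCBIM37, the same build as mm9. Same-numbered libraries of different groups did not deviate together (r between -0.220 and 0.333 over 9370 genes), so the numbers were not taken as pairs. Marker genes Ly6g and Cd68 were not analysed here.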

Additional observations from a re-analysis of the deposited data

Results flagged for a closer look

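Each member's 4 values in each group, 30 sets in all, were checked with Dixon's test for a single library far from the other 3, which chance flags in about 1 of 20 sets. Of these, 2 sets were flagged, both for replicate 2. Saa3 in hyperthyroid WT liver reached 43.7 RPKM in that library, with a gap to the next value of 0.879 of the range. Hp in hypothyroid L-NCOR1deltaID liver reached 2487 RPKM, with a gap of 0.915 of the range.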

How the results depend on the processing

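Of the members' log2 fold changes, none turned sign with T3 under any alternative run. Counting each member in each run, 4 estimates turned in each of the other comparisons, all of uncalled genes. These were Saa3 and Crp in mutants, and Orm1 and Orm2 with T3 against mutants. Relative to hypothyroid WT, mutant Saa3 ran from -0.12 (without mutant replicate 2) to 0.62 with 1 library left out, and Crp from -0.12 to 0.043, above 0 without mutant replicate 1 or 2 or WT replicate 4. With T3 against mutants, Orm1 was -0.081 under scaling by the median of gene ratios and ran from -0.10 to 0.46 with 1 library left out, and Orm2 from -0.65 to 0.14. With T3, 4 members were called higher, 2 under that scaling (Saa1 and Saa2), and 2 to 6 with 1 library left out. That scaling lowered the all-gene median (log2) by 0.193 with T3 and by 0.171 against mutants, changed the calls over all genes from 1155 higher and 484 lower to 802 and 641 with T3 and from 774 and 421 to 541 and 559 against mutants, and ended the calls of Saa3 (2.19, adjusted p = 0.015), Apcs (0.88) and, against mutants, Saa1 (3.09, adjusted p = 0.014). In mutants 0 members were called higher, 2 (Saa1 and Saa2) at an adjusted p below 0.05, and 0 to 2 with 1 library left out. The single lower call, Saa4, was 0 with no filter on low values, with all 12 libraries in 1 fit, without the variance trend and with a replicate block, and 0 to 1 with 1 library left out, with adjusted p of 0.013, 0.035, 0.014 and 0.050 in the first 4. Against mutants 3 members were called higher with T3 and 5 at an adjusted p below 0.05. With a replicate block, Saa3 with T3 had an adjusted p of 0.012 and Saa4 in mutants 0.050, both then uncalled; against mutants Saa2 (0.00061) and Saa3 (0.00092) were called and Apcs (0.016) was not, and calls over all genes in mutants went from 100 higher and 75 lower to 20 and 25. The Saa3 call with T3 also ended with a pseudocount of 1, without the filter and without the variance trend (adjusted p = 0.011 to 0.012), and that of Lcn2 was gained with all 12 libraries in 1 fit (0.0072) or a mean of at least 1 RPKM (0.0094). Calls over all genes also moved with a pseudocount of 1 (575 higher and 319 lower with T3, 480 higher against mutants) and, in mutants, to 63 higher without the variance trend, 115 lower in 1 fit, and 344 higher and 257 lower at an adjusted p below 0.05. The cause of these changes was not tested. Depth limits Saa3 most.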
